A study of Homo sapiens with 9 samples.

Results

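The sestrins SESN1, SESN2 and SESN3, together with DDIT4 and EIF4EBP1, are 5 genes whose products restrain signalling by mTORC1 or the translation that it drives, out of 58735 genes listed in the count files. They were taken by gene name, and they had been chosen with their differences from DMSO known, because the sestrin paralogs lay on opposite sides of 0. The differences from DMSO of these 5 genes are therefore given as a description, without a test. All 5 passed the filter on low counts, and 18319 genes were tested in all.

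Poly(A) RNA was sequenced from HEK293T, an established line of human embryonic kidney origin whose SV40 large T antigen binds p53. In every group, controls included, the genotype was PRPS1-HA-dTAG with PRPSAP1-V5-BromoTag, which puts a degradation tag on each protein. The 3 groups of 3 libraries were DMSO, dTAG47 at 500 nM, used to deplete PRPS1, a phosphoribosyl pyrophosphate synthetase, and AGB1 at 500 nM, used to deplete PRPSAP1, its associated protein. RNA was taken 24 h after the compounds were added. dTAG47 brings the ubiquitin ligase receptor CRBN to its tag and AGB1 brings VHL. The labels do not say whether the cells are 1 clone, nor whether each library had its own culture, so the spread between libraries may be technical.

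mTORC1 is a protein kinase complex that promotes protein synthesis and growth when nutrients are present. Sestrins bind GATOR2 and so free GATOR1 to switch off the Rag GTPases that bring mTORC1 to the lysosome, and SESN2 releases GATOR2 when it binds leucine. DDIT4 (REDD1) acts through the TSC complex on RHEB, the GTPase that activates mTORC1, and EIF4EBP1 (4E-BP1) holds the cap-binding protein EIF4E until mTORC1 phosphorylates it. Transcription of SESN1 is known to respond to p53 and FOXO factors, SESN2 to p53, ATF4 and NRF2, SESN3 to FOXO factors, DDIT4 to ATF4, p53 and hypoxia, and EIF4EBP1 to ATF4.

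The promoters of SESN1, SESN2 and DDIT4 are shown because these genes are read against p53, ATF4 and hypoxia factors below, and because SESN1 and SESN2 lay on opposite sides of DMSO. RefSeq (GRCh38.p14) gives 3 start sites for SESN1 and 1 each for SESN2, SESN3 and DDIT4. The promoter sequences used here held none for EIF4EBP1, so its promoter was not searched. Each sequence is the 250 bases before a start site, 5′ to 3′ on the gene's strand, with capitals for every match to the motifs searched on both strands. The SESN1 window, before start site 3, is chr6:109008989-109009238 (minus strand), the SESN2 window is chr1:28259268-28259517 (plus strand) and the DDIT4 window is chr10:72273674-72273923 (plus strand).
SESN1: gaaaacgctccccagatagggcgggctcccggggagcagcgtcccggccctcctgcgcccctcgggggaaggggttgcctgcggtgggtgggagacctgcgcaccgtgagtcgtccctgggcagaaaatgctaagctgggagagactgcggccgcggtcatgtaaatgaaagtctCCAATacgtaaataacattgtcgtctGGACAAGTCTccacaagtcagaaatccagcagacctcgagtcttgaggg
SESN2: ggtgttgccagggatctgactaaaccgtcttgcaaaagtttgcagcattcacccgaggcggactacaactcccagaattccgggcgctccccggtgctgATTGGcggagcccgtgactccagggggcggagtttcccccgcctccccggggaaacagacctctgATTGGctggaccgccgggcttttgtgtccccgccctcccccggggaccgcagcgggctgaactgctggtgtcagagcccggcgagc
DDIT4: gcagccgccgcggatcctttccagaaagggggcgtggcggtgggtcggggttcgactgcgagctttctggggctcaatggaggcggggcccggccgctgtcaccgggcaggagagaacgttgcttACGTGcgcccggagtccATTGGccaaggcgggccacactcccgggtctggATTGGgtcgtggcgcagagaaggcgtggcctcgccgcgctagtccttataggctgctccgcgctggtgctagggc

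The capitals in the SESN1 window mark a CCAAT box, a motif found in 32.01% of windows, and, between bases −49 and −40 from the start site, a match to the p53 decamer, GGACAAGTCT. A match to that decamer was present in 5.57% of 35114 windows of this length. Start site 3 was chosen for display after this match was seen, and the decamer was in none of the other 5 windows, those of SESN1 starts 1 and 2, SESN2, SESN3 and DDIT4. In SESN2 the capitals mark 2 CCAAT boxes on the minus strand (ATTGG), a number reached in 9.53% of windows. DDIT4 also held 2 CCAAT boxes, and it held 1 hypoxia response element (ACGTG) between −125 and −121, a motif present in 18.5% of windows. The C/EBP-ATF response element, to which ATF4 binds (TGATGNAA, 3.14% of windows), the forkhead element (GTAAACA, 2.98%) and the cyclic AMP response element (TGACGTCA, 1.65%) were in none of the 6 windows. Elements were searched only in the letters given, so variant forms were not counted, and a window without a match may still hold one. The antioxidant response element (TGACNNNGC, 10.9%) occurred once, before the second start site of SESN1. The SESN3 window held none of the motifs. The counts are per gene, so transcripts from the 3 SESN1 starts cannot be told apart.

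Total counts ranged from 27964128 to 44803380 per library. The mRNAs of the tagged proteins stood at 103 ± 3.77 CPM (SD, n = 3) in DMSO, 109.9 ± 3.49 under dTAG47 and 109 ± 0.556 under AGB1 for PRPS1, and at 29.4 ± 6.64, 29.6 ± 2.68 and 29.1 ± 1.67 CPM for PRPSAP1. Both degraders work on protein, so mRNA levels are no check of the depletion. CPM is the count scaled to library size, with sizes adjusted by TMM. Of 5 epithelial markers 4 were at 1 CPM or more in each group, and KRT19 had at most 3 counts. EPCAM was at −0.40 (SE 0.33) and 0.14 (SE 0.32) on the log2 scale against DMSO under dTAG47 and AGB1, and CDH1 at −0.27 and −0.31 (SE 0.16 each), none of which passed. The 5 immune markers summed to at most 0.971 CPM and the 5 endothelial markers to at most 1.97 CPM in any library. The leukocyte antigen PTPRC had at most 1 count in any library. Fibroblast markers, nearly all COL1A1, summed to between 27.7 and 32.4 CPM in DMSO, 27.0 and 33.8 under dTAG47 and 23.2 and 26.8 under AGB1. PDGFRA was at 1.75 CPM in DMSO, 0.932 under dTAG47 and 0.832 under AGB1, with no call. DCN, at 0.0536 CPM in DMSO and 0 under both compounds, had at most 6 counts in any library and was not tested. The part of these markers in the differences below was not tested. The libraries differed in how their deviations from the gene mean followed transcript GC content. Spearman's rho across 11428 genes was −0.378, −0.281 and 0.271 in DMSO 1 to 3 and 0.623, −0.329 and 0.0286 in dTAG47 1 to 3, and it lay between −0.0266 and 0.0499 in the AGB1 libraries.

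The 5 genes differed widely in abundance. Per kilobase of gene length in DMSO, EIF4EBP1 was highest at 102 ± 8.25 CPM per kb (SD, n = 3), followed by SESN2 at 41.2 ± 3.32, DDIT4 at 8.42 ± 1.07, SESN3 at 7.14 ± 1.09 and SESN1 at 3.61 ± 0.437. DDIT4 and SESN3 were not separated in DMSO, where their libraries ran from 7.22 to 9.26 and from 6.03 to 8.22 CPM per kb. The other neighbours in this order did not overlap. With either compound DDIT4 no longer overlapped SESN3: it ran from 9.38 to 10.1 CPM per kb against 5.71 to 6.39 under dTAG47, and from 8.34 to 9.71 against 5.87 to 6.94 under AGB1. The order of the 5 group means was the same in all 3 groups. Gene length was the union of exons, and levels set between genes depend on that choice.

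SESN1 (ENSG00000080546, GRCh38 chromosome 6, 108986437 to 109094819, minus strand, protein-coding, 14 exon blocks) is the sestrin best known as a p53 target. It was counted at 17.5, 21.0 and 16.9 CPM in DMSO 1 to 3, at 14.1, 13.5 and 14.05 CPM under dTAG47 and at 14.4, 12.5 and 14.2 CPM under AGB1. Each of the 6 treated libraries lay below each DMSO library, with the widest spread in DMSO, where DMSO 2 was high. The log2 fold change against DMSO was −0.41 (SE 0.12) under dTAG47 and −0.43 (SE 0.12) under AGB1, which is a level 24.9% and 25.6% lower. Both comparisons share the same DMSO libraries. A position of all 6 treated libraries below DMSO was found in 2.2% of tested genes, and of all 6 above in 2.11%. In bulk RNA, fewer cells with the transcript and less of it per cell cannot be told apart.

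SESN2 (ENSG00000130766, chromosome 1, 28259527 to 28282491, plus strand, 10 exon blocks) encodes a sestrin that binds leucine. It stood at 137, 134 and 155 CPM in DMSO, at 167, 172 and 180.4 CPM under dTAG47 and at 166, 171 and 166 CPM under AGB1. Each treated library was above each DMSO library, and DMSO 3 was the nearest to them. The log2 fold change was 0.29 (SE 0.06) under dTAG47 and 0.24 (SE 0.06) under AGB1, a level 21.9% and 18.0% higher. With counts from 4314 to 7705 per library the counting error was at most 1.52%, below the spread between DMSO libraries of 8.06%.

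SESN3 (ENSG00000149212, chromosome 11, 95165513 to 95232541, minus strand, 14 exon blocks), the sestrin tied to FOXO factors, was at 86.9, 75.7 and 63.8 CPM in DMSO. It was at 65.9, 67.6 and 60.3 CPM under dTAG47 and at 62.0, 72.3 and 73.4 CPM under AGB1. The groups overlapped, since DMSO 3 lay among the treated libraries while DMSO 1 lay above all of them. The log2 fold change was −0.22 (SE 0.09) under dTAG47 and −0.12 (SE 0.09) under AGB1. These sizes rested on single libraries. Without DMSO 1 they were −0.11 and −0.01, without DMSO 3 the AGB1 value was −0.23, and without AGB1 1 it was −0.05.

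DDIT4 (ENSG00000168209, chromosome 10, 72273920 to 72276036, plus strand, 2 exon blocks) was at 14.9, 18.1 and 19.1 CPM in DMSO. With dTAG47 it was at 20.0, 20.9 and 19.3 CPM and under AGB1 at 17.2, 19.3 and 20.0 CPM. The dTAG47 libraries lay above DMSO, by a narrow margin over DMSO 3, while AGB1 1 lay below DMSO 2. The log2 fold change was 0.21 (SE 0.12) under dTAG47 and 0.11 (SE 0.12) under AGB1. Without DMSO 1 the values were 0.11 and 0.02. With AGB1 the value was 0.19 without DMSO 3, 0.18 without AGB1 1 and 0.07 without AGB1 3. The antisense gene DDIT4-AS1, which covers 41.2% of the exonic bases of DDIT4, was listed with 0 counts in each library.

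EIF4EBP1 (ENSG00000187840, chromosome 8, 38030341 to 38060365, plus strand, 4 exon blocks) was at 101, 108 and 119 CPM in DMSO. It was at 133, 126 and 117 CPM under dTAG47 and at 125, 123 and 126 CPM under AGB1. The AGB1 libraries were close together and all above DMSO, while dTAG47 3 lay just below DMSO 3. The log2 fold change was 0.20 (SE 0.07) under dTAG47 and 0.19 (SE 0.07) under AGB1.

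**Figure D1:**
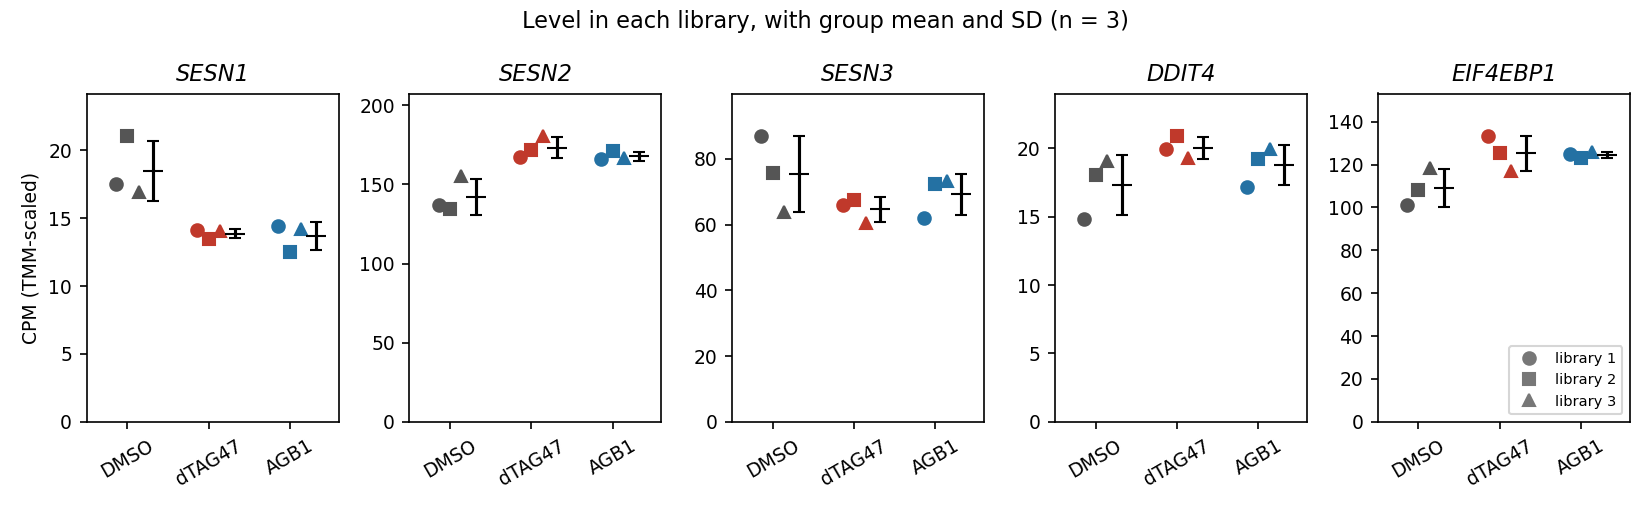
CPM with TMM-scaled library sizes (linear axes from 0) for each of the 5 genes in the 9 libraries; points are libraries, and the bars beside them are the group mean and SD (n = 3). SESN1 is below and SESN2 above DMSO in all 6 treated libraries, while the groups overlap for SESN3.

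Thus 3 of the 5 genes, SESN1, SESN2 and DDIT4, did not overlap DMSO under dTAG47, and 3, SESN1, SESN2 and EIF4EBP1, did not overlap it under AGB1. Among all tested genes 5.8% lay wholly above and 5.82% wholly below DMSO under dTAG47, and 6.56% and 6.75% under AGB1. The choice of the 5 genes used these differences, so nothing is read from the counts. None of the 5 shared a 75-base word of its longest transcript with another gene. The overlapping antisense genes AL390208.1 at SESN1 (at most 7 counts per library) and AP000787.1 at SESN3 (at most 58 counts) were far below the sestrins. Which strand setting was used in counting is not given in the sources used here. Low antisense counts, those of DDIT4-AS1 included, therefore do not show how reads in shared bases were assigned.

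**Figure D2:**
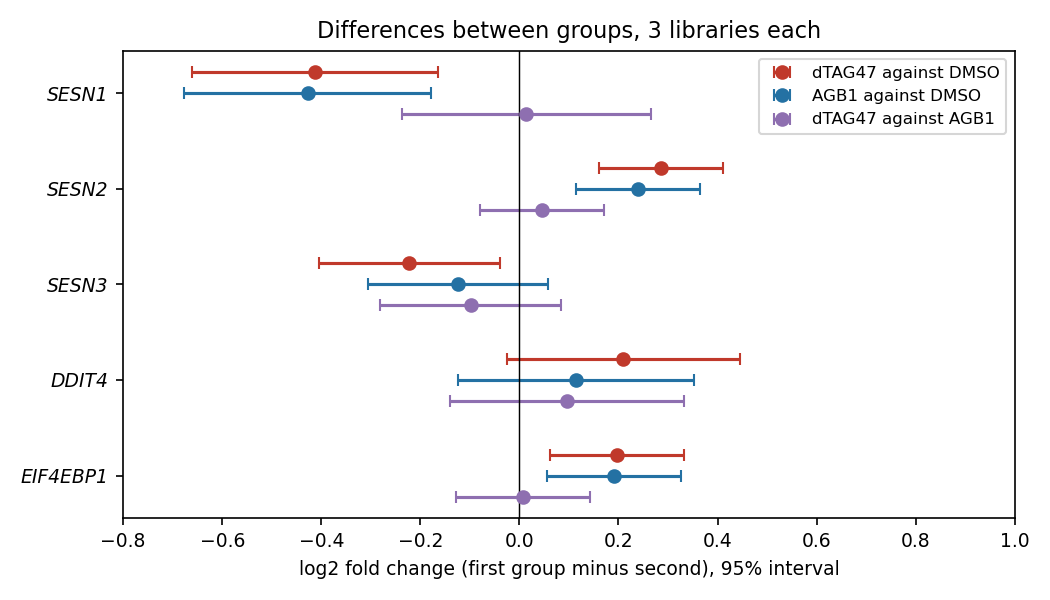
log2 fold change (first group minus second) with its 95% interval for each gene in the 3 comparisons, 3 libraries per group. The intervals against DMSO show the error only; those of dTAG47 against AGB1 include 0 for all 5 genes.

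The make-up of the sestrin transcripts differed from DMSO along with their sum. The summed sestrin level was 51.9 ± 2.14 CPM per kb in DMSO, 59.0 ± 1.63 under dTAG47 and 57.8 ± 1.046 under AGB1 (SD, n = 3), with all 6 treated libraries above the highest DMSO library at 54.3. SESN2 made up 79.2% ± 3.11 of that sum in DMSO, 85.0% ± 0.917 under dTAG47 and 84.0% ± 0.747 under AGB1. SESN1 made up 6.98% ± 1.09, 4.59% ± 0.175 and 4.64% ± 0.425. The ratio of SESN2 to SESN1 per kilobase was 11.6, 9.48 and 13.6 in DMSO 1 to 3, 17.6, 19.0 and 19.1 under dTAG47, and 17.0, 20.3 and 17.4 under AGB1. The length used for SESN1 was 5121 bases, its longest transcript 3509. For SESN2 both were 3453, so the size of the ratios and shares depends on the length used. The lowest treated library, AGB1 1, was above the highest DMSO library, DMSO 3. SESN1 and SESN2 were chosen with their opposite sides known, so this gap comes with the choice. The sum and the shares rest on the same values, and nothing is read from any of them. The ratio of SESN2 to SESN3 ran from 4.82 to 7.45 in DMSO, 7.78 to 9.16 under dTAG47 and 6.94 to 8.19 under AGB1. For this ratio AGB1 overlapped both DMSO and dTAG47, while DMSO and dTAG47 did not overlap.

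**Figure D3:**
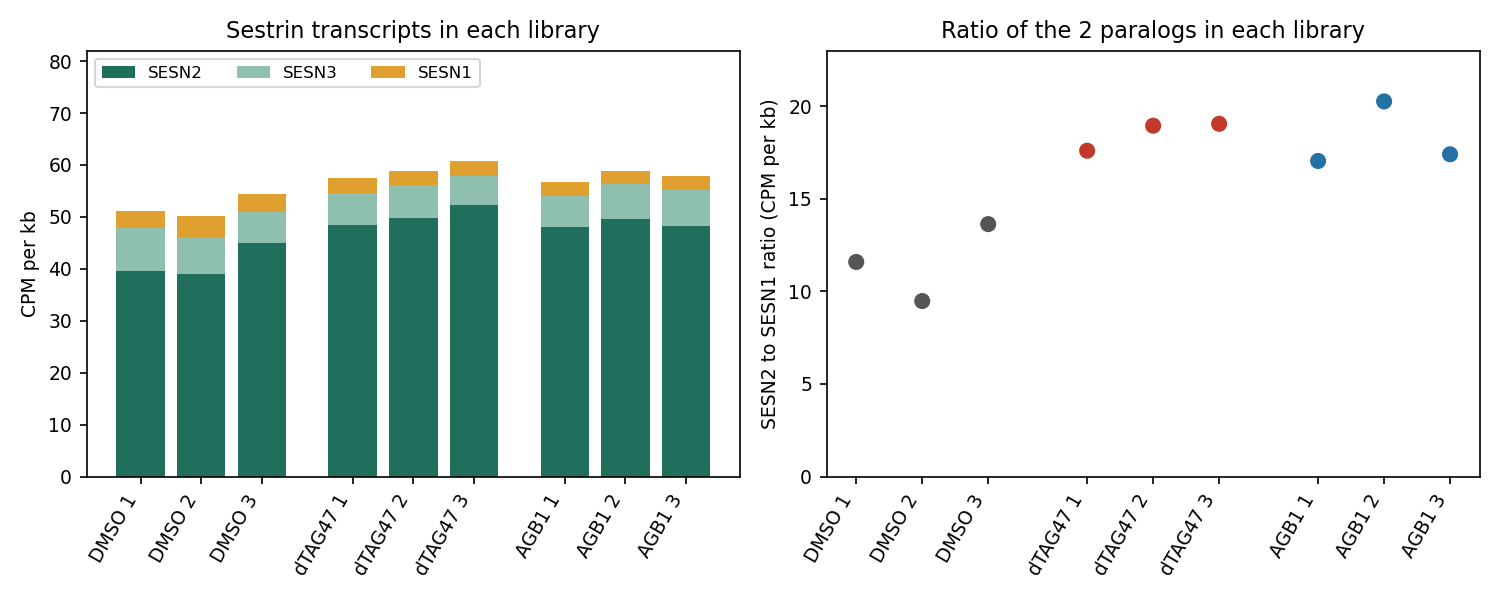
Left, stacked levels of SESN2, SESN3 and SESN1 in CPM per kb of gene length in each library; right, the SESN2 to SESN1 ratio of the same libraries. The ratio is at most 13.6 in DMSO and at least 17.0 in the treated libraries. The sestrins were chosen for lying on opposite sides of DMSO, so this gap is a description.

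The direct comparison of the compounds separated none of the 5. The genes were chosen with both compound groups set against DMSO, so this comparison is not independent of the choice. The log2 fold change of dTAG47 minus AGB1 was 0.01 for SESN1 (95% interval −0.24 to 0.27) and 0.05 for SESN2 (−0.08 to 0.17). It was −0.10 for SESN3 (−0.28 to 0.08), 0.10 for DDIT4 (−0.14 to 0.33) and 0.01 for EIF4EBP1 (−0.13 to 0.14). Every adjusted p was 0.999 in edgeR's quasi-likelihood test over all 18319 genes, where 0% of genes were called and 736 had an unadjusted p under 0.05. DESeq2 and limma-voom also called 0 genes. For each of the 5 genes the dTAG47 and AGB1 libraries overlapped, while 5.35% of tested genes lay wholly higher and 5.1% wholly lower under dTAG47. The intervals for SESN3 and DDIT4 reach past the differences of these genes from DMSO, so a difference of that size between the compounds is not excluded.

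The genes on opposite sides of DMSO also differed in base composition and length. The longest transcripts of SESN1 and SESN3 held 43.4% and 37.1% GC, against 59.5% in SESN2, 58.1% in DDIT4 and 65.5% in EIF4EBP1. Gene length was 5121 bases for SESN1 and 10573 for SESN3, against 3453, 2058 and 1073 for the other 3. Among the DMSO libraries, DMSO 3, with the positive rho to GC, had the highest SESN2, DDIT4 and EIF4EBP1 and the lowest SESN1 and SESN3. The dTAG47 libraries were not ordered in this way. There dTAG47 1, with a rho of 0.623, had the highest EIF4EBP1 but the lowest SESN2 and, narrowly, the highest SESN1. Its DDIT4 and SESN3 lay between those of dTAG47 2 and dTAG47 3. The part of the GC trend in the differences was not tested beyond its removal. With the GC trend of each library removed, the values under dTAG47 were −0.40 for SESN1, 0.24 for SESN2, −0.16 for SESN3, 0.17 for DDIT4 and 0.14 for EIF4EBP1. With AGB1 they were −0.43, 0.22, −0.08, 0.09 and 0.18. SESN3 under AGB1 thus moved from −0.12 to −0.08, a change of more than 1.5 times, and the other 9 values stayed within that margin. With the gene length trend removed, all 10 values stayed within it.

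**Figure D4:**
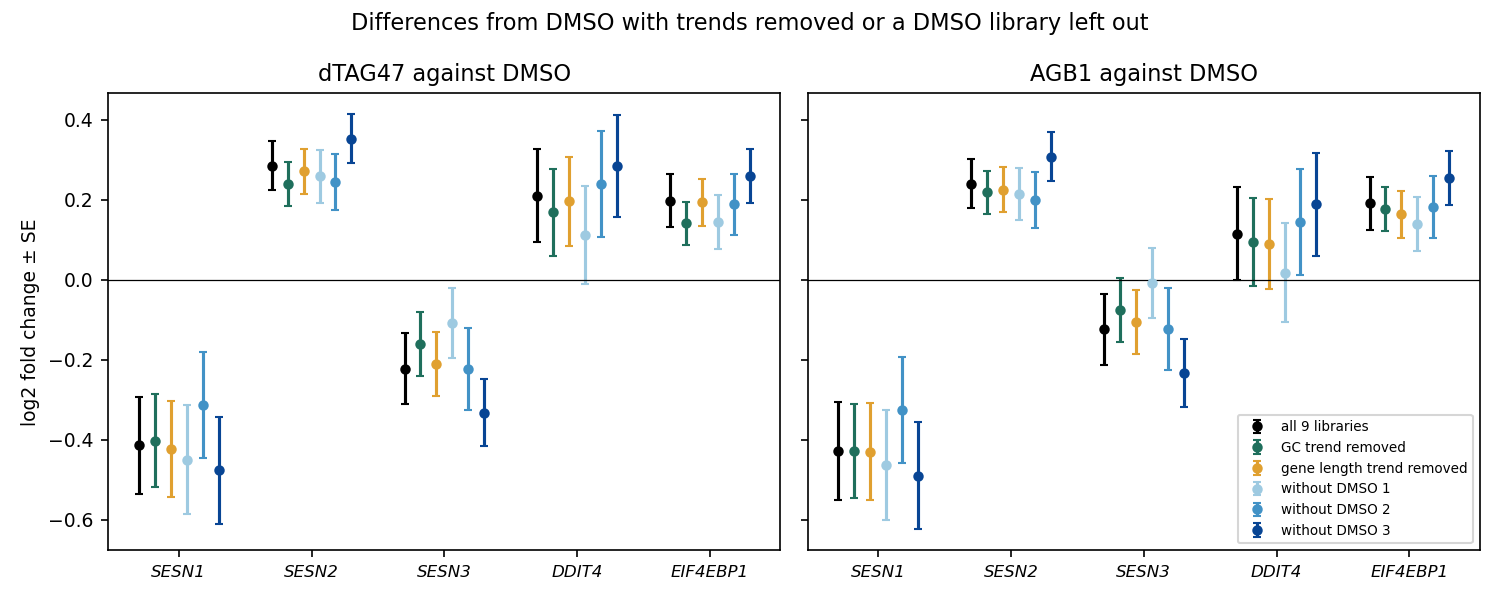
log2 fold change against DMSO ± SE for the 5 genes, with all 9 libraries, with the GC or gene length trend removed, or with 1 DMSO library left out. SESN1 stays below and SESN2 above 0 in each setting drawn, while SESN3 and DDIT4 come near 0 under AGB1 when DMSO 1 is left out.

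The lists around these genes held 107 tested genes: 9 lists of the mTORC1 pathway and its effectors, and 5 of other stress-induced brakes, transcription factors and the targets of ATF4, p53 and FOXO. Both genes called below belong to the latter 5 lists, and 0 genes of the first 9 passed in the edgeR fit of all 9 libraries. With dTAG47, 1 of the 107 rose (CHAC1) and 1 fell (FOXO4), where 0.06% of all tested genes were called, and 58 had a positive log2 fold change. With AGB1, 1 rose (CHAC1) and 0 fell, where 0.104% of all genes were called, and 54 were positive. An unadjusted p under 0.05 was found for 15 of the 107 under dTAG47 and 18 under AGB1, and for 1333 and 1421 of all 18319 tested genes. Under AGB1 DESeq2 called 5 and limma-voom 0. The median log2 fold change of the 107 was 0.01 with each compound, against −0.000974 and −0.000924 over all tested genes.

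None of the 12 genes of the complexes that sestrins engage passed the test. GATOR2, the direct partner of sestrins, had 2 of 5 genes positive under dTAG47 and 1 of 5 under AGB1. Its coat-protein subunit SEC13 had log2 fold changes of 0.11 (SE 0.06) and 0.10 (SE 0.06), and MIOS had −0.01 (SE 0.09) and −0.12 (SE 0.09). GATOR1 was positive in 2 of 3 and 3 of 3 genes, with NPRL3 at 0.17 and 0.20 (SE 0.08 each) and DEPDC5 at 0.06 and 0.10 (SE 0.12 each). DEPDC5 shares 26.0% of its 75-base words with other genes. In KICSTOR, which anchors GATOR1 at the lysosome, 0 of 4 and 2 of 4 were positive, with C12orf66 (KICS2) at −0.09 and 0.17 (SE 0.10 each).

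Other nutrient inputs and the lysosomal platform likewise gave 0 calls. Of the arginine, S-adenosylmethionine and leucine sensors, 1 of 5 was positive with each compound. The arginine sensor CASTOR2 was at 5.29 ± 0.329 CPM in DMSO, 3.80 ± 0.269 under dTAG47 and 4.60 ± 0.561 under AGB1 (n = 3, ± SD). Its differences of −0.48 (SE 0.19, edgeR adjusted p = 0.599) and −0.20 (SE 0.19) did not pass. It shares 19.4% of its words with other genes. BMT2 (SAMTOR) was at −0.16 and −0.18 (SE 0.10 each). Among Rag GTPases, Ragulator and folliculin genes 9 of 12 and 7 of 12 were positive. LAMTOR2, a Ragulator subunit, was at 0.15 (SE 0.09) and 0.28 (SE 0.09, edgeR adjusted p = 0.350), and the GTPase RRAGB at −0.15 and −0.12.

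On the branch through which DDIT4 works, TSC2 was at 0.09 (SE 0.06) under dTAG47 and 0.07 (SE 0.06) under AGB1, and TBC1D7 at −0.06 and −0.12 (SE 0.09 each). Of the 4 TSC and RHEB genes 3 were positive with each compound, and 0 passed. AMPK genes were positive in 3 of 7 with each, among them PRKAB2 at 0.09 under dTAG47 and PRKAG2 at 0.15 under AGB1, where the other compound gave −0.03 and −0.21. The subunits of mTORC1 itself were positive in 4 of 5 and 3 of 5, with the inhibitory subunits AKT1S1 at 0.12 and 0.09 and DEPTOR at 0.04 and −0.16.

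Among effectors, EIF4EBP2, the paralog of EIF4EBP1, was at 224 ± 17.5 CPM in DMSO, 244 ± 8.85 under dTAG47 and 259.6 ± 3.95 under AGB1 (n = 3, ± SD). Against DMSO this was 0.13 (SE 0.06) and 0.22 (SE 0.06, edgeR adjusted p = 0.198) on the log2 scale. EIF4EBP2 was called under AGB1 by DESeq2, and in edgeR with the GC trend removed, with or without the replicate block. Another paralog, EIF4EBP3, had at most 4 counts and was not tested. Of the 7 effectors tested 5 were positive under each compound. The scaffold EIF4G1 was at 0.04 and 0.09 (SE 0.04 each).

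Other stress-induced brakes on growth signalling were positive in 4 of 6 genes with each compound and gave 0 calls. PPP1R15A (GADD34), which ends the phosphorylation of eIF2-alpha, was at 0.33 (SE 0.10, edgeR adjusted p = 0.309) under dTAG47 and 0.07 (SE 0.10) under AGB1. PIK3IP1, an inhibitor of PI3-kinase, was at 1.66 ± 0.373 CPM in DMSO, 1.73 ± 0.288 under dTAG47 and 0.911 ± 0.335 under AGB1, with fold changes of 0.06 (SE 0.36) and −0.86 (SE 0.38). Neither gene passed in the comparison of the compounds (adjusted p = 0.999 for each).

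Among 10 transcription factors known to act on these genes, FOXO4 fell under dTAG47. It went from 88.1 ± 3.68 to 68.4 ± 2.73 CPM (n = 3, ± SD), or −0.37 on the log2 scale (SE 0.07, edgeR adjusted p = 0.0224), and it was at 70.8 ± 2.10 CPM under AGB1 (−0.32, SE 0.07, edgeR adjusted p = 0.0628). The dTAG47 call of FOXO4 ended when any 1 of the 6 DMSO and dTAG47 libraries was left out, and in a fit of those 6 libraries alone. FOXO4 was called under AGB1 too by DESeq2, and in edgeR with unscaled library sizes, either other filter, or the GC or length trend removed. The glucocorticoid receptor NR3C1 was at −0.17 and −0.15 (SE 0.09 each). In all, 4 of the 10 were positive under dTAG47 and 3 under AGB1.

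Targets of the same factors, leaving out the 5 genes, were tested as 3 further lists. ATF4 targets were positive in 11 of 12 with each compound, with medians of 0.12 and 0.14, and 3 and 7 of the 12 had an unadjusted p under 0.05. Over all 18319 tested genes 9102 and 9112 were positive, and 1333 and 1421 had such a p. CHAC1, which breaks down glutathione, rose from 6.68 ± 1.22 CPM to 11.7 ± 1.22 under dTAG47 (0.80, SE 0.16, edgeR adjusted p = 0.0330) and to 11.9 ± 1.48 under AGB1 (0.82, SE 0.16, adjusted p = 0.0207). The dTAG47 call of CHAC1 ended without DMSO 1, DMSO 2, dTAG47 1, dTAG47 3 or AGB1 2 and in a fit of DMSO and dTAG47 alone, and its AGB1 call without DMSO 1, AGB1 2 or AGB1 3. limma-voom made neither call. The cystine transporter SLC7A11 was at 0.14 (SE 0.11) and 0.37 (SE 0.11, adjusted p = 0.270).

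Other p53 targets were positive in 5 of 15 genes under dTAG47 and 2 of 15 under AGB1, with medians of −0.07 and −0.09, and 0 passed. TP53INP1, a p53-induced nuclear protein, was at 14.4 ± 2.77 CPM in DMSO, 9.93 ± 0.914 under dTAG47 and 10.01 ± 2.47 under AGB1. That is −0.54 on the log2 scale (SE 0.16) for each compound, with edgeR adjusted p = 0.352 and 0.321. GDF15 was at −0.43 with each (SE 0.28 and 0.29). FOXO targets were positive in 5 of 12 and 6 of 12, with CITED2 at −0.24 and −0.21 (SE 0.09 each), KLF15 at −0.13 and −0.19 and 0 calls. These lists were drawn up with earlier results of these data known, so their sides are no independent support.

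**Figure D5:**
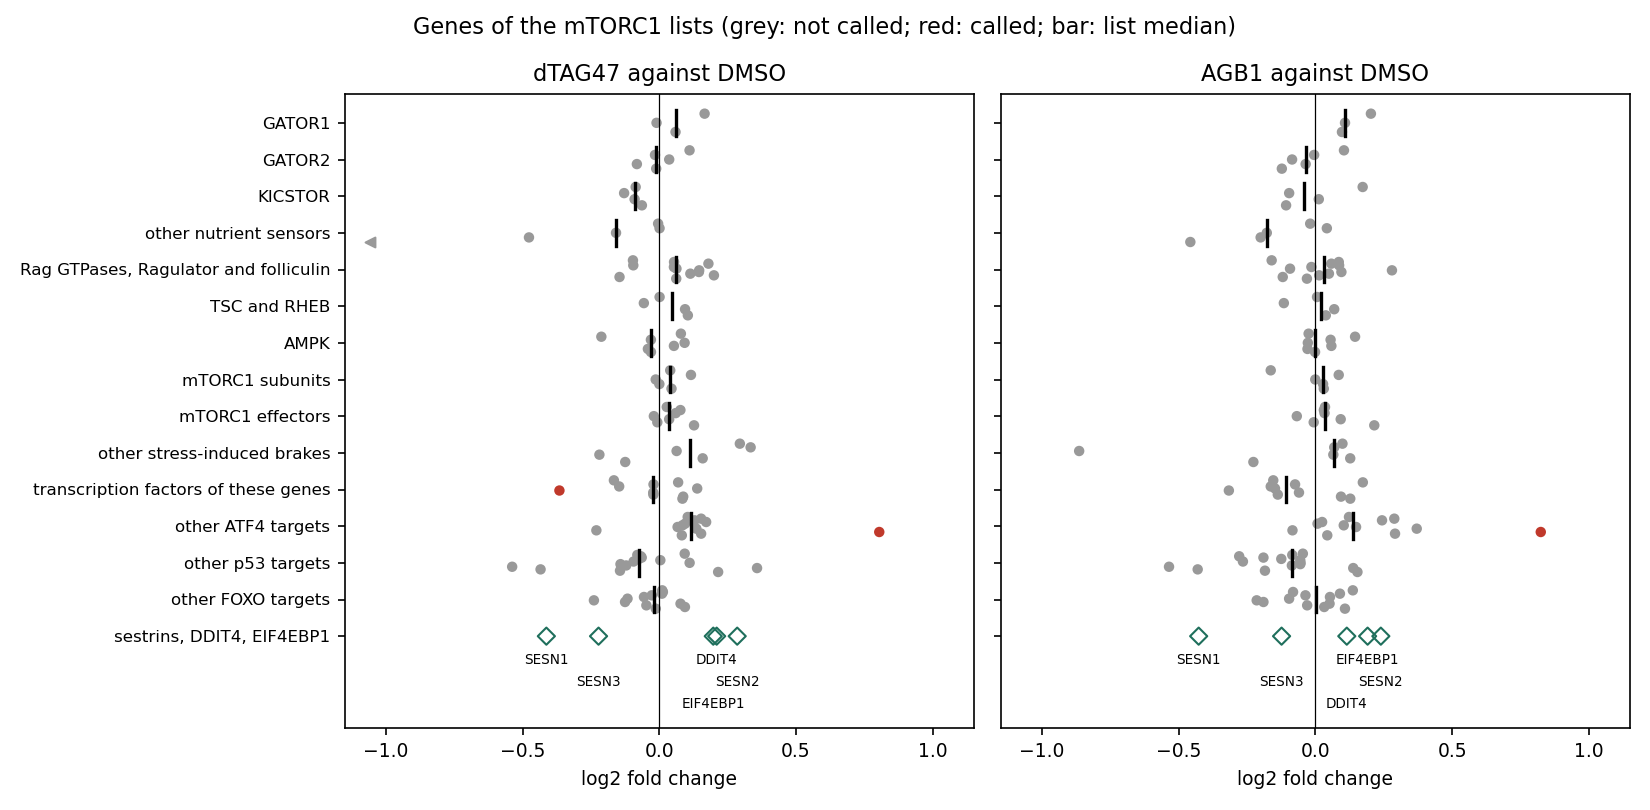
log2 fold change against DMSO of each tested gene in the 14 lists (grey, not called; red, called; black bar, list median), with the 5 genes as diamonds below; the arrowhead marks CASTOR1 (−2.64, at most 26 counts in a library), beyond the axis. The called genes are FOXO4 and CHAC1 under dTAG47 and CHAC1 under AGB1.

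The genes whose levels followed each of the 5 most closely were taken as those with the highest Pearson correlation of log2 CPM over the 9 libraries, among 10834 protein-coding genes at 5 CPM or more. The points share libraries and their base-composition trends, and the values are a description. For SESN1 they were TLE4, a Groucho corepressor (r = 0.964), SDC2, a heparan sulphate proteoglycan (0.952), and RASGEF1B (0.941). TLE4 was at 68.7 ± 2.95 CPM in DMSO, 56.2 ± 1.61 under dTAG47 and 55.8 ± 2.47 under AGB1 (SD, n = 3). For SESN2 they were ZBED4 (0.961), the nuclear envelope protein gene TMEM43 (0.955) and VDR, the vitamin D receptor (0.951). For SESN3 they were FBN2, a fibrillin (0.939), EPC2 (0.939) and RBBP6 (0.933). For DDIT4 they were RETREG2 (0.959), TRPC4AP (0.953) and ENSA (0.948), and for EIF4EBP1 they were UBE2Z (0.981), RNF135 (0.972) and the phosphatase scaffold PPP2R1A (0.968). No gene was among the closest 3 of more than 1 of the 5.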

How the data were processed

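Poly(A)-selected RNA was sequenced in 9 libraries, per the labels' protocols. The authors deposited 1 table of whole, not normalized counts per library, by Ensembl gene, with a gene length that equals the union of exons in GENCODE release 29 for 58724 of 58735 genes. HISAT2, DESeq2 and hg38 are named in the submitters' processing notes; no version or counting tool is named in the sources used here. The counts were fitted in edgeR 4.0.16 (R 4.3.3): filterByExpr, TMM, 1 quasi-likelihood model over all 9 libraries, Benjamini-Hochberg adjustment over 18319 genes, threshold 0.05. The SE was taken as |log2 fold change| over the root of the F statistic. Counting errors are 1 divided by the square root of the count, and cover counting only. The 5 genes, the lists and the rules were chosen with earlier results of these data known.

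By the rule for named genes the text names the 5 genes, list genes past the threshold, the 2 largest changes per list at 1 CPM or more, and the 3 genes most like each of the 5. One gene that this rule names is not reported here. Other list members (KRT19, PTPRC, DCN, EIF4EBP3, CASTOR1) were named after their values were seen. DESeq2 1.42.0, limma-voom 3.58.1, 3 scalings, 2 filters, 2-group fits, the replicate block and leaving out each library were tried. Removal of GC or length trends (lowess, span 0.3) was chosen after seeing the data. The fit was tested on simulated data with known changes. Of genes changed 1.25-fold, it called 42% in the right direction for dTAG47 against DMSO and 44% for AGB1 against DMSO. For dTAG47 against AGB1 it called 38%. A gene without a call may therefore still differ by that much. The simulation changed 50 genes at each size, up to 3-fold, and drew counts without the GC trends of the libraries. That is more changed genes than were called in the data, which makes the adjusted threshold easier to pass. The share recovered in the data may thus be lower, which was not tested.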

Additional observations from a re-analysis of the deposited data

How the results depend on the processing

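The log2 fold changes of the 5 genes against DMSO kept their sign under each of the 12 other settings and without each library. Without 1 library in turn, SESN1 ranged from −0.48 to −0.31 with dTAG47 and −0.49 to −0.33 with AGB1, SESN2 from 0.24 to 0.35 and 0.20 to 0.31, SESN3 from −0.33 to −0.11 and −0.23 to −0.0082, DDIT4 from 0.11 to 0.28 and 0.018 to 0.19, and EIF4EBP1 from 0.14 to 0.26 in dTAG47 and 0.14 to 0.25 in AGB1. For dTAG47 against AGB1, EIF4EBP1 changed sign near 0: −0.000494 with upper-quartile factors, −0.0367 with the GC trend removed and −0.0392 with that and the replicate block, and −0.0390 to 0.0499 without 1 library. SESN1 ranged from −0.0467 to 0.0517. No call was made there for the 5 genes (adjusted p from 0.940 to 1 over the other settings).

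Of the 107 list genes, 1 was called with dTAG47 by limma-voom and 0 in a fit of its 2 groups alone, against 2, and 0 to 2 without 1 library. With AGB1 against DMSO, DESeq2 and the removal of the GC trend called 5 each, that removal with the replicate block 4, no filter 3, limma-voom 0, and 2 were called with unscaled library sizes, under a 1 CPM filter in 3 libraries and after removing the length trend, against 1, and 0 to 2 without 1 library. Over all genes dTAG47 gave 11 calls, 47 in DESeq2, 43 without a filter, 22 with the GC trend removed, 4 in its 2 groups alone and 2 to 20 without 1 library. AGB1 gave 19, and 81, 67 and 49 under the first 3 of these, 48 with the GC trend removed and the replicate block, and 6 to 55 without 1 library. For dTAG47 against AGB1 no filter gave 13, and leaving out 1 library gave 0 to 2. The cause was not tested.

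With the replicate number as a block, SESN1 was at −0.41 with dTAG47 and −0.43 with AGB1, SESN2 at 0.29 and 0.24, and no call changed for these genes or the list genes. The numbers did not pair the libraries: the 9 correlations between same-numbered libraries ran from −0.154 to 0.0747, and 2 of 9 libraries correlated best with their own number. Without TMM factors the 3 closest genes were the same for SESN1, SESN2, SESN3 and DDIT4, and 2 of 3 for EIF4EBP1.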
